A study of Mus musculus with 6 samples.

Results

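The insulin-like growth factor (IGF) family was compared between differentiated muscle cells and their dividing precursors, through its ligands IGF1 and IGF2, its receptors IGF1R and IGF2R, and 6 of its binding proteins, IGFBP2 to IGFBP7. A probe set, the group of short oligonucleotides that reports a transcript on these arrays, was taken as a member where its only annotated symbol was 1 of these 10 genes. This gave 22 probe sets of 9 genes, among 22283 probe sets and 11939 genes with a probe set of their own, sex-linked genes left out. IGF2 had none, because each probe set that carries its symbol carries a second symbol as well.

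By the labels the RNA came from C2C12, a mouse muscle cell line. The myotube group comprised 3 arrays of cells kept in 2.5% horse serum, a low-serum medium in which myoblasts fuse into multinucleated myotubes. The myoblast group comprised 3 arrays of undifferentiated, growing cells, for which no medium is given in the sources used here. No genotype, agent, time or number of cultures is given in the labels for either group, so the spread behind each p-value is that between arrays and need not be that between cultures. The third myoblast array is titled only as growing cells and was placed by its description. That description carries, as a range, the numbers in the titles of the other myoblast arrays. Whether the third array holds a sample of its own, or a mix or repeat of the others, is therefore not settled. It was counted as a full replicate in the main fit and in each SD, and settings that left it out are given below. The arrays were HG-U133A, designed on human transcripts, and these files do not settle which species the RNA came from, so genes carry the names of the human genes on the array. Each value is a signal, a brightness on a linear scale, with all arrays scaled to about the same mean. The signal of a probe set depends on its own sequence, so signals were compared between arrays and never between probe sets.

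IGF1 and IGF2 are secreted peptides that act through IGF1R, a tyrosine kinase receptor, whose PI3K and AKT branch promotes muscle differentiation and growth and whose RAS and ERK branch promotes division. IGF2R, the mannose 6-phosphate receptor, carries no kinase and takes up IGF2 for breakdown in the lysosome. The binding proteins hold the ligands outside the cell, can block or prolong their action, and release them when proteases cut them. In differentiating mouse myoblasts IGF2 and IGFBP5 are known as secreted products of the cells themselves.

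The arrays were not alike. The highest signal of 27 control probe sets whose RNA was not added lay between 520.1 and 1040.2 on myotube arrays and between 251.5 and 919.9 on myoblast arrays, and a signal at or below the value of its own array was not told from background. The spiked controls had a geometric mean of 12320 to 71439 on myotube arrays and of 3539 to 48119 on myoblast arrays, with myoblast array 1 at the high end. Over probe sets, Pearson's r was 0.988 between myoblast arrays 2 and 3, against 0.889 to 0.912 for the other pairs within a group and 0.909 to 0.924 between myotube array 3 and the myoblast arrays. The run records put the 3 myotube arrays on one scan day and chip lot and the myoblast arrays on another day and 2 other lots, so day and lot cannot be told apart from the groups. By consecutive codes in the run records, read here as laboratory codes, myoblast array 1 was grouped in a series with the 3 myotube arrays. That series is inferred and no label names it, and this array shared neither scan day nor chip lot with the myotube arrays. The series-blocked fit below takes its group difference from those 4 arrays. Among 24 muscle differentiation markers 20 were above background on at least 2 myotube arrays and 7 on at least 2 myoblast arrays, and MYOG, MYOD1, MYF6 and CKM in neither group. Among 15 markers of dividing cells the numbers were 8 and 15. The summed muscle signal lay between 68304 and 73944 on myotube arrays and between 5921 and 19307 on myoblast arrays. The dividing-cell sum lay between 10421 and 13597 on myotube arrays and between 53242 and 63275 on myoblast arrays. Among the myoblast arrays, array 1 had the highest muscle sum and the lowest dividing-cell sum. Fibroblast markers were above background for 12 of 13 genes in each group, and 9 of 12 tested rose. Their summed signal lay between 399936 and 616944 on myotube arrays and between 131095 and 284927 on myoblast arrays. The highest of the myoblast sums was on array 1. COL1A1 and COL1A2 had the largest signals in the sum on every array. PDGFRA did not follow, with 2058, 2593 and 2831 on myotube arrays, against 1530, 4718 and 3964 on myoblast arrays. Of 8 adipocyte, 7 endothelial and 5 macrophage markers, 1, 2 and 3 were above background in myotubes and 3, 1 and 2 in myoblasts, and 0 of the 6 tested passed in limma (2 at an unadjusted p under 0.05).

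Of the 15 member probe sets bright enough to be tested, 4 rose in myotubes and 0 fell, 1 each of the binding proteins IGFBP6, IGFBP4, IGFBP3 and IGFBP7; none was lower at an unadjusted p under 0.05. Over all probe sets tested 4.96% rose and 6.44% fell (limma, adjusted p under 0.05 over 13298 probe sets). Without myoblast array 1 the member count was 7 of 15, where 26.1% of all probe sets passed, against 11.4% with all arrays. In the series-blocked fit it was 2, IGFBP6 and IGFBP4, where 2.54% of all probe sets passed. With no filter on low signals, 6 of the 22 member probe sets passed, all higher, where 5.58% of all probe sets passed and 2.49% passed as higher; 1 of the 6, IGFBP5 211959_at, had no value above background on any array. The median log2 change of all 22 was then 0.62, against 0.19 over all probe sets. The lowest myotube signal lay above the highest myoblast signal in 5 of the 15 tested, as in 17.5% of all tested, and in 9 of the 22, as in 17.1% of all probe sets. Since the arrays hold RNA of whole cultures, fewer cells of a type and less RNA per cell cannot be told apart. Most of the tested fibroblast markers above rose as these binding proteins did, and their part in the result was not tested.

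**Figure D1:**
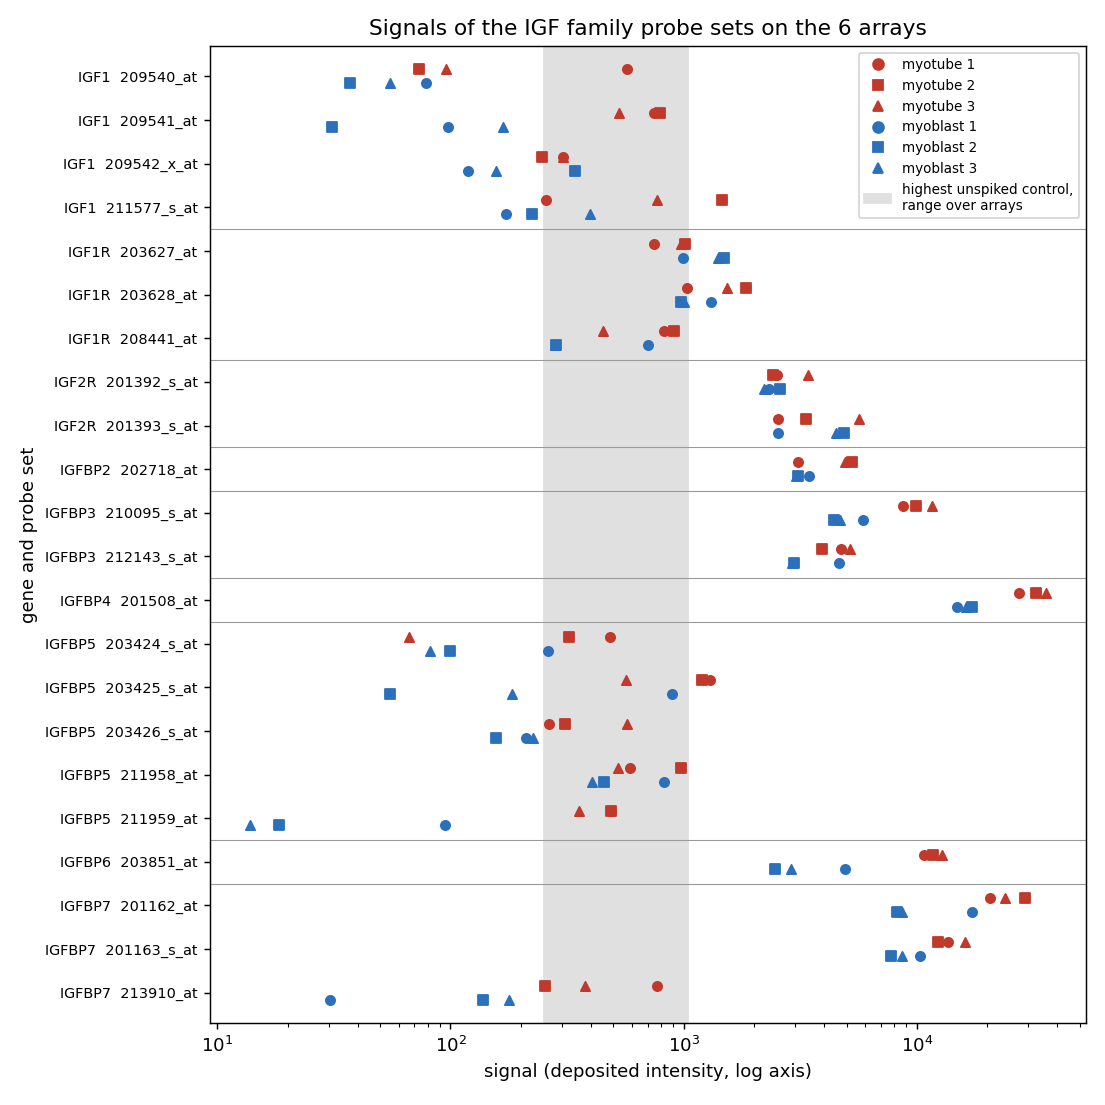
Signal of each of the 22 IGF family probe sets on each array (log axis), with myotube arrays in red above myoblast arrays in blue and symbols for array 1, 2 and 3. The grey band spans the highest unspiked control signal of the 6 arrays, 251.5 to 1040.2; IGFBP3, IGFBP4, IGFBP6 and the 2 brighter probe sets of IGFBP7 lie to its right on every array.

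IGF1, the ligand, was dim throughout. Its only tested probe set, 211577_s_at, gave 256, 1459 and 772 in myotubes, against 173, 224 and 398 in myoblasts. Myotube array 1 lay within the myoblast range. The change did not pass (log2 0.99 ± 0.51, 95% interval -0.15 to 2.13, limma adjusted p = 0.219). The probe set 209541_at gave 747, 794 and 527 in myotubes, against 97.7, 31 and 168 in myoblasts, with no overlap, and 2 myotube values but no myoblast value above background. It passed with no filter on low signals (limma adjusted p = 0.0363), with no fold change given because myotube array 2 was also below the background of its array. The remaining 2 overlapped between groups and did not pass in that fit (adjusted p = 0.318 for 209540_at and 0.632 for 209542_x_at).

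IGF1R, the signalling receptor, showed no probe set that passed. For 203627_at the signals were 746, 1009 and 976 in myotubes, against 998, 1489 and 1404 in myoblasts (log2 -0.42 ± 0.28, limma adjusted p = 0.325). For 203628_at they were 1033, 1842 and 1530 in myotubes, against 1313, 971 and 1006 in myoblasts (log2 0.34 ± 0.28, adjusted p = 0.428). The third, 208441_at, gave 822, 905 and 452 in myotubes, against 705, 284 and 282 in myoblasts (log2 0.60 ± 0.42, adjusted p = 0.347). The groups overlapped in all 3, and the estimates differed in sign. Their 95% intervals reached from -1.05 to 0.20, from -0.28 to 0.97 and from -0.32 to 1.53, so a 2-fold change in either direction was outside the interval of 203628_at only.

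IGF2R, the uptake receptor for IGF2, overlapped between groups in both probe sets and did not pass. For 201392_s_at the signals were 2516, 2425 and 3421 in myotubes, against 2316, 2588 and 2208 in myoblasts (log2 0.20 ± 0.21, 95% interval -0.26 to 0.66, limma adjusted p = 0.522). For 201393_s_at they were 2528, 3337 and 5648 in myotubes, against 2540, 4861 and 4501 in myoblasts (log2 -0.07 ± 0.31, 95% interval -0.76 to 0.62, adjusted p = 0.895). The sign of the second turned in 7 of the 19 other settings. Both intervals leave out a 2-fold change in either direction.

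IGFBP6, a binding protein with a preference for IGF2 over IGF1, had signals of 10729, 11752 and 12771 in myotubes, against 4909, 2457 and 2881 in myoblasts (probe set 203851_at). All 3 myotube values lay above all 3 myoblast values, and the highest myoblast value was that of array 1. The mean was 11751 ± 1021 in myotubes and 3416 ± 1311 in myoblasts (SD, n = 3 each), a rise of 3.44-fold (log2 1.78 ± 0.24 SE, limma adjusted p = 0.0022). It passed in each of the 19 other settings tried, with log2 changes between 1.22 and 2.06. The lowest came from the series-blocked fit (adjusted p = 0.0258).

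IGFBP4, which holds IGFs away from their receptor until the protease PAPPA cuts it, had signals of 27347, 32363 and 35713 in myotubes, against 14812, 17272 and 16325 in myoblasts (201508_at). The groups did not overlap, and myoblast array 1 was the lowest of its group here. The mean was 31808 ± 4211 in myotubes and 16136 ± 1241 in myoblasts, a rise of 1.95-fold (log2 0.96 ± 0.20, limma adjusted p = 0.0154). In the series-blocked fit the change was 1.08 (adjusted p = 0.0361). The call was lost without myotube array 2 (adjusted p = 0.0706) or myoblast array 3 (adjusted p = 0.0707), while the log2 change without any 1 array stayed between 0.88 and 1.07. It was also lost in the first laboratory series alone (adjusted p = 0.0686), with chip lot as a random block (adjusted p = 0.0674) and with myoblast arrays 2 and 3 averaged (adjusted p = 0.0586).

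IGFBP3, the main carrier of IGFs in blood, was measured by 2 probe sets that differed. For 210095_s_at the signals were 8738, 9969 and 11593 in myotubes, against 5867, 4424 and 4664 in myoblasts, with no overlap between groups. That probe set rose 1.99-fold (log2 0.99 ± 0.19, limma adjusted p = 0.01). For 212143_s_at the signals were 4732, 3934 and 5188 in myotubes, against 4623, 2968 and 2919 in myoblasts. Here myoblast array 1 lay among the myotube values, and the log2 change of 0.40 ± 0.22 did not pass (adjusted p = 0.24). Without myoblast array 1 it was 0.61 and passed (adjusted p = 0.0432). In the series-blocked fit neither probe set passed, at 0.75 (adjusted p = 0.124) and -0.01 (adjusted p = 0.988), and the call of the first was also lost without myotube array 2 (adjusted p = 0.0508).

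IGFBP7, a secreted relative that binds IGFs weakly and has been studied in vessel walls and the matrix, had 3 probe sets. The brightest, 201162_at, gave 20538, 29097 and 24002 in myotubes, against 17252, 8234 and 8653 in myoblasts. The groups were apart, but myoblast array 1 stood nearer to the lowest myotube value than to the other myoblast values. It rose 2.24-fold (log2 1.17 ± 0.29, limma adjusted p = 0.0278). For 201163_s_at the signals were 13649, 12363 and 16164 in myotubes, against 10345, 7742 and 8670 in myoblasts, again apart and with array 1 the highest myoblast value, and the log2 change was 0.65 ± 0.19 (adjusted p = 0.0548). Without myoblast array 1 that change was 0.76 and passed (adjusted p = 0.0146). In the series-blocked fit those 2 changes were 0.49 (adjusted p = 0.307) and 0.43 (adjusted p = 0.358). The call of 201162_at was lost without any of 5 arrays, all but myoblast array 1 (adjusted p up to 0.128). The third probe set, 213910_at, was too dim to test, with 767, 254 and 377 in myotubes, against 30.4, 138 and 178 in myoblasts, all at or below background except myotube array 1.

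**Figure D2:**
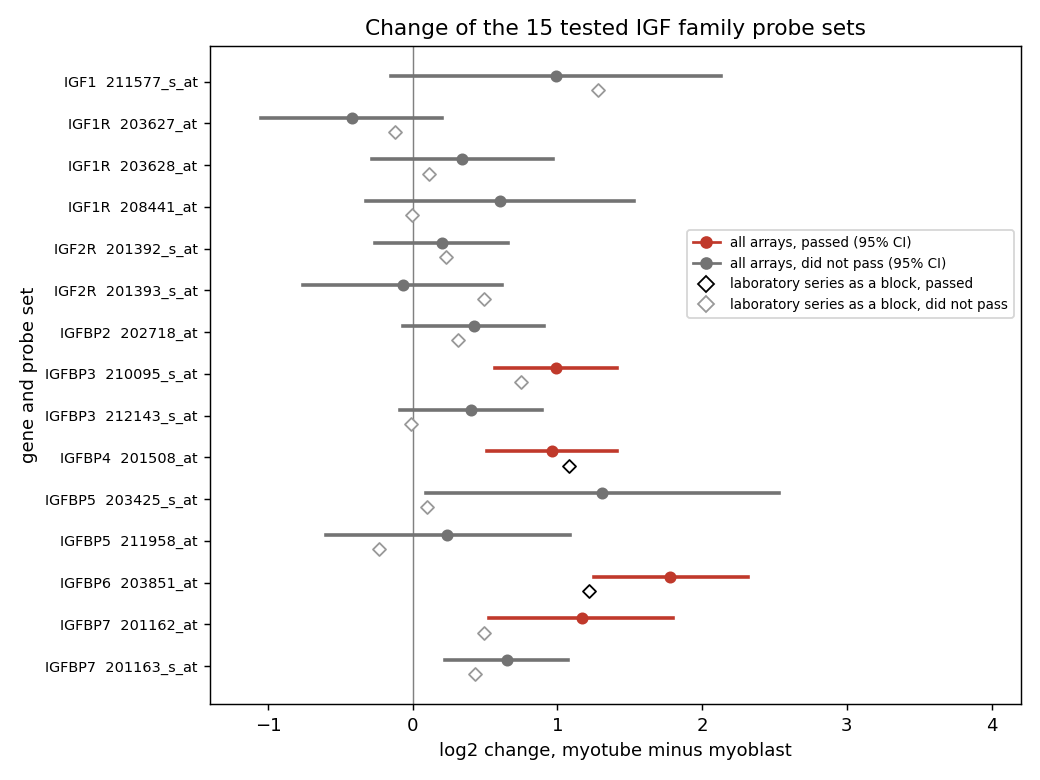
Log2 change, myotube minus myoblast, of the 15 tested IGF family probe sets, as circles with 95% confidence intervals from limma over all arrays, red where the adjusted p was under 0.05. Diamonds give the change in the series-blocked fit, black where it passed; only those of IGFBP4 and IGFBP6 did.

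The promoters of the 4 genes that rose are given to show the sequence before the genes that passed; whether these genes moved jointly was not tested. They are the mouse sequences of RefSeq (GRCm38.p6), from 250 bases before to 50 bases after the annotated start, each on the gene's own strand, while the array was designed on human transcripts. All 10 members had a match by symbol. Igfbp6 lies on the plus strand at chr15:102143936-102144235, Igfbp4 on the plus strand at chr11:99040994-99041293, Igfbp3 on the minus strand at chr11:7213874-7214173 and Igfbp7 on the minus strand at chr5:77407996-77408295. Capitals mark each E-box, CANNTG, the letters that myogenic helix-loop-helix factors such as MYOD1 recognise.
Igfbp6: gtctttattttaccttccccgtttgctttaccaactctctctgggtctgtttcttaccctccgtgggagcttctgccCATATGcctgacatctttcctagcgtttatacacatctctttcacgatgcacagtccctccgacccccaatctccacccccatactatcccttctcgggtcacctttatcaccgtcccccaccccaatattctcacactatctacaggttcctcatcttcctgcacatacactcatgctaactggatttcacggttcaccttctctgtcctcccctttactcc
Igfbp4: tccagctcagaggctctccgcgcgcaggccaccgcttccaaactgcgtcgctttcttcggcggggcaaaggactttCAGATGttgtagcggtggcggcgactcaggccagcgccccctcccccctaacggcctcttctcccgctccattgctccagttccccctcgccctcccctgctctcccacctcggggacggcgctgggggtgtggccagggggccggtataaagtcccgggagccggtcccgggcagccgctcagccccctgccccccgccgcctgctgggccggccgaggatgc
Igfbp3: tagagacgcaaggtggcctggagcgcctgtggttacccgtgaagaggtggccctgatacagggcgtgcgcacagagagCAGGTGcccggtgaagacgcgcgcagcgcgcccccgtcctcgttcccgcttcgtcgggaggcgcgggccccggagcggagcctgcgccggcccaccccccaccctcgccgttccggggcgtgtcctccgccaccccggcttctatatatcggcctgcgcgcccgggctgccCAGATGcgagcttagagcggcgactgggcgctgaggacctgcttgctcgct
Igfbp7: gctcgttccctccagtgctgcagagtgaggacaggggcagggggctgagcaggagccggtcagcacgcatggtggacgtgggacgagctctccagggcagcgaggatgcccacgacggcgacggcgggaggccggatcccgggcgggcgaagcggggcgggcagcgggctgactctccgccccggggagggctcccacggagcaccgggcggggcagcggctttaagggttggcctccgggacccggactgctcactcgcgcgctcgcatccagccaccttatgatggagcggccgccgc

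The E-box letters, which read the same on both strands, stood 1 time in Igfbp6, 1 time in Igfbp4, 2 times in Igfbp3 and 0 times in Igfbp7, and 72.3% of 32851 mouse promoters of this length hold them at least once. The FOXO core TGTTTAC was in none of the 4 windows on either strand (3.65% of all promoters). TATAAA was found on either strand in Igfbp4 and Igfbp6 (13.6% of all), and the GC box GGGCGG 4 times in Igfbp7 and in none of the other 3 windows (35.7% of all). The GC content was 49.7% in Igfbp6, against 71.3%, 71.7% and 73.3% in Igfbp4, Igfbp3 and Igfbp7, with a median of 52.7% over all promoters. These are matches of letters, with no measurement of binding.

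IGFBP2, a binding protein also known from fetal tissue, gave 3089, 5261 and 4942 in myotubes, against 3445, 3089 and 3019 in myoblasts (202718_at). Myotube array 1 lay at the level of the myoblast arrays, so the groups overlapped. The change did not pass (log2 0.42 ± 0.22, 95% interval -0.07 to 0.91, limma adjusted p = 0.226).

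IGFBP5, named above as a product of differentiating mouse myoblasts, lay near or below background on most arrays in all 5 of its probe sets. The brightest, 203425_s_at, gave 1298, 1195 and 565 in myotubes, against 894, 54.9 and 183 in myoblasts. Each myotube signal was above the background of its array and no myoblast signal was, but myoblast array 1 exceeded myotube array 3. The log2 change was 1.31 ± 0.55 and did not pass (limma adjusted p = 0.143). With each myoblast signal set to the background of its array (919.9, 326.5 and 251.5), the myotube signal was on average 1.82-fold higher. That value is no lower bound, since the background of myoblast array 1 lay above the signal of myotube array 3. Without myoblast array 1 the log2 change was 1.91 and passed (adjusted p = 0.0186), while the series-blocked fit gave 0.10 (adjusted p = 0.96). The probe set 211959_at gave 489, 487 and 357 in myotubes, against 94.3, 18.3 and 13.8 in myoblasts. The groups did not overlap, but no value was above the background of its array, so no fold change is given. The other 3 ranged from 66.4 to 977 in myotubes and from 82 to 825 in myoblasts and did not pass in the fit with no filter on low signals. The 5 probe sets therefore gave no single value for IGFBP5.

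**Figure D3:**
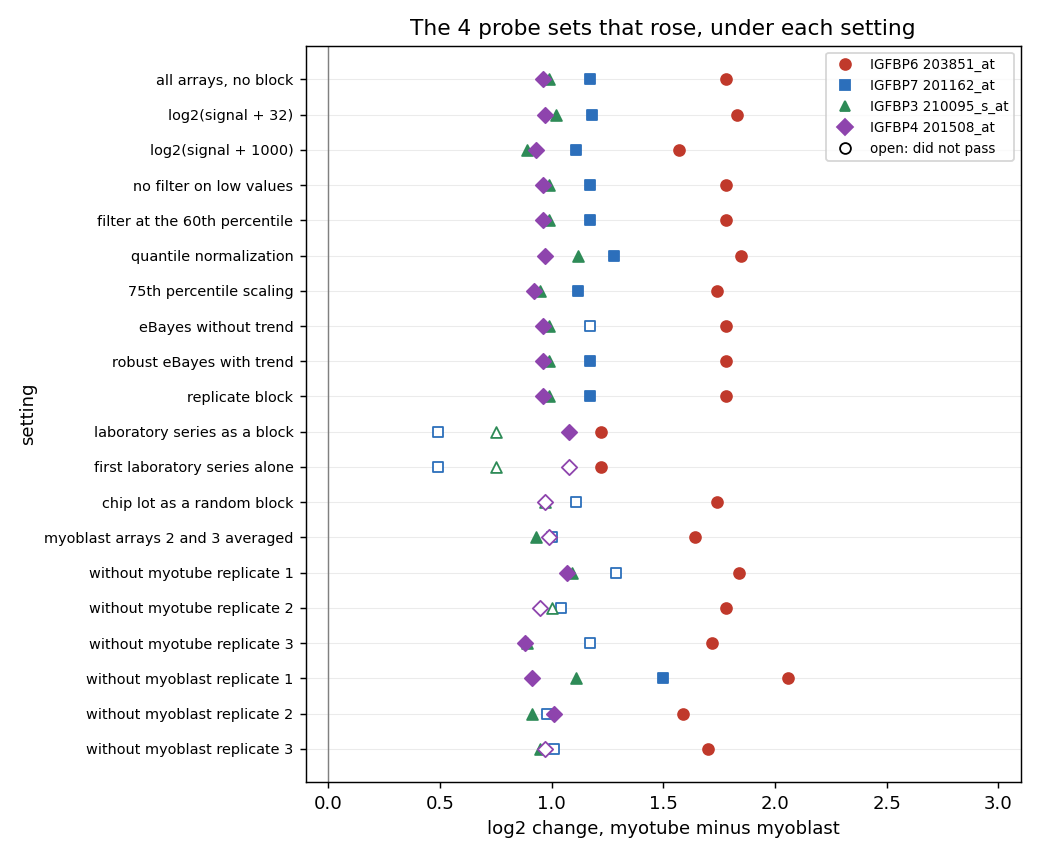
Log2 change, myotube minus myoblast, of the 4 probe sets that rose, with all arrays and under the 19 other settings, filled where limma's adjusted p was under 0.05 and open where it was not. IGFBP6 is filled in every row, IGFBP3 in 15, IGFBP4 in 14 and IGFBP7 in 9 of the 19 other settings, and the changes of IGFBP7, IGFBP3 and IGFBP6 are lowest where myoblast array 1 alone carries the comparison (0.49, 0.75 and 1.22).

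By profile over the 6 arrays, the genes most like IGFBP4 were SLC17A1, EFEMP1 and SCPEP1, with Pearson's r of 0.995, 0.994 and 0.993. SLC17A1 was dim, with signals below background on myotube arrays 1 and 2 (648 and 740) and on myoblast array 1 (368). EFEMP1, which encodes a fibulin of the matrix, had signals of 17886, 20849 and 21640 in myotubes, against 8033, 9928 and 9865 in myoblasts. Like IGFBP4 it was lowest in each group on array 1. The genes most like the tested IGF1 probe set were BDH2, KIAA0040 and SGCB (r of 0.986, 0.984 and 0.982). Their log2 changes between groups were 0.13, 0.89 and 0.26, against 0.99 for that IGF1 probe set. KIAA0040 was below background on myotube array 1 (243) and on myoblast arrays 1 and 2 (120 and 248). All these r values are over 6 arrays that share the split into 2 groups, and they were the highest among all genes tested.

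The proteases that free IGFs from their binding proteins, with the inhibitors of those proteases, changed in 9 of 13 genes tested. Of these 7 rose and 2 fell, where over all genes 5.43% rose and 6.74% fell (limma, each gene by its brightest probe set). The other 6 lists of the pathway differed in size and ranged from 0 of 11 to 2 of 5 genes tested. ADAM12, a membrane protease that cuts IGFBP3 and IGFBP5, gave 3651, 3726 and 3776 in myotubes, against 705, 1595 and 1162 in myoblasts (log2 1.59 ± 0.26, adjusted p = 0.00547), though 1 of its 3 tested probe sets passed. HTRA1, a secreted protease that cuts IGFBP5, gave 19806, 15362 and 16418 in myotubes, against 9648, 6971 and 6497 in myoblasts (log2 1.15 ± 0.21, adjusted p = 0.00779). MMP2, a gelatinase, and PLAU, the urokinase that activates plasmin, had log2 changes of 1.50 ± 0.25 and 1.31 ± 0.23 (adjusted p = 0.00571 and 0.00739). PLAT, the other plasminogen activator, went the other way at -1.11 ± 0.18 (adjusted p = 0.00508). The groups did not overlap in any of these 5 genes. All 5 were named after passing on these same arrays, so this adds no separate support. The summed fibroblast markers given above were also higher on every myotube array, and their part here was not tested.

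PAPPA, the protease that cuts IGFBP4, gave 2285, 1749 and 3025 in myotubes, against 727, 1036 and 1213 in myoblasts (log2 1.09 ± 0.28, limma adjusted p = 0.0325). Its relative PAPPA2 had a change of 0.94 ± 0.24 (adjusted p = 0.0337), by a probe set that can cross-hybridise. Of the 2 tested PAPPA2 probe sets 1 passed. PAPPA, PAPPA2 and PLAT fell outside the naming rule and were named after their values were seen. The stanniocalcins STC1 and STC2, both of which inhibit PAPPA, changed in opposite directions. STC2 gave 10293, 10796 and 8437 in myotubes, against 4972, 2613 and 2360 in myoblasts (log2 1.58 ± 0.26, adjusted p = 0.00537). STC1 gave 1081, 752 and 672 in myotubes, against 4498, 2458 and 2226 in myoblasts (log2 -1.61 ± 0.30, adjusted p = 0.00946), and its 3 tested probe sets all fell. In the series-blocked fit 2 of the 13 genes passed, where 2.54% of all probe sets passed. These were ADAM12 (2.12, adjusted p = 0.00761) and STC1 (-2.21, adjusted p = 0.0114). The other 7 kept their sign with adjusted p from 0.0714 to 0.257. That fit takes its group difference from myoblast array 1, where ADAM12 (705) and PAPPA (727) were below the background of the array (919.9). The size of their changes in it is therefore not well measured. Leaving out 1 array ended the call of STC1 (myotube array 2, adjusted p = 0.0524), of PAPPA (any array but myoblast array 1, up to 0.099) and of PAPPA2 (4 of the 6 arrays, up to 0.164); PAPPA passed in 8 of the 19 other settings.

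**Figure D4:**
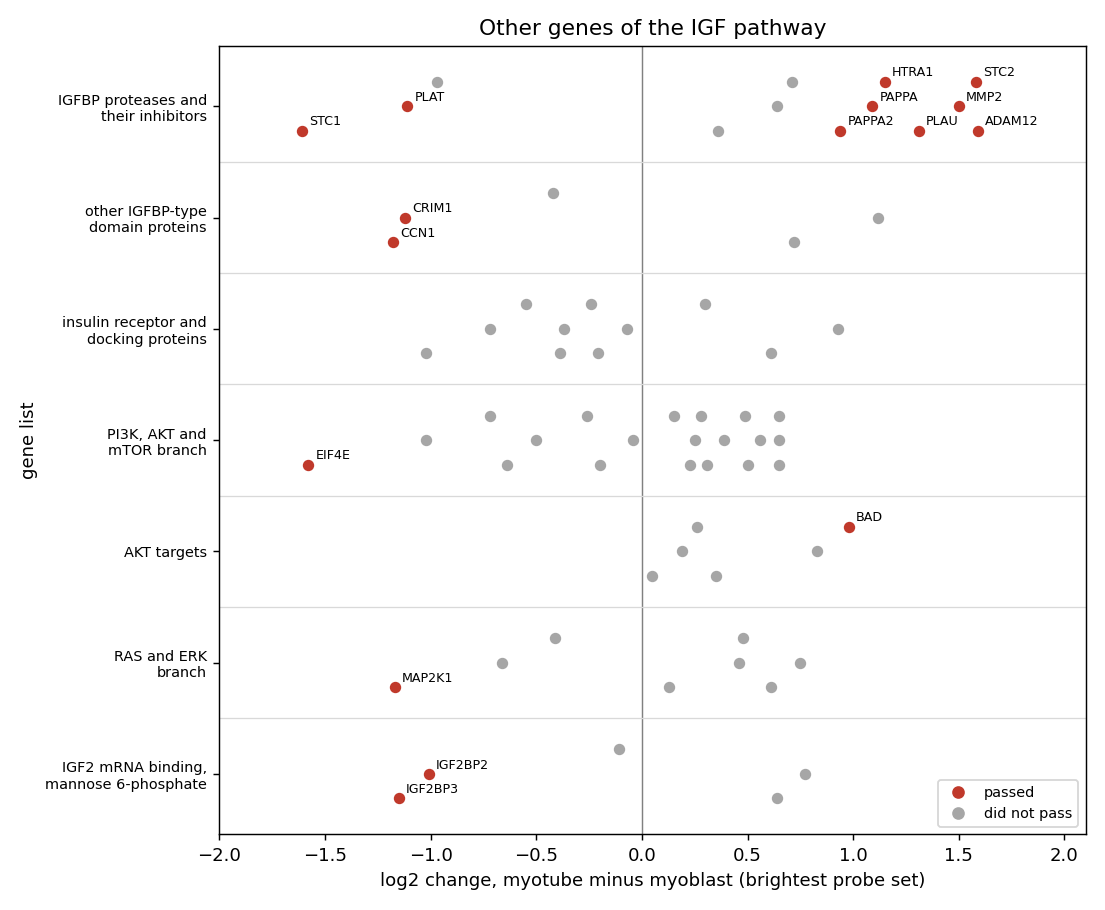
Log2 change, myotube minus myoblast, of the 68 tested genes of 7 lists of the IGF pathway, each gene by its brightest probe set, red and named where limma's adjusted p was under 0.05. The protease list holds 9 of the 16 red points, 7 of them to the right of 0.

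Inside the cell the counts were 0 of 11, 1 of 20, 1 of 6 and 1 of 8 in 4 lists, where 12.2% of all genes passed, and whether these lists differ from that share was not tested. Of 11 insulin receptor and docking genes 0 passed in limma. The 2 with the smallest p were IRS2 and IRS1, the adaptors that couple the receptor to PI3K. IRS1 gave 333, 938 and 930 in myotubes, against 1248, 1674 and 1879 in myoblasts (log2 -1.02 ± 0.36, limma adjusted p = 0.0905). Only 1 of its 3 myotube values was above the background of its array. IRS2 gave 6539, 3646 and 5435 in myotubes, against 7516, 8981 and 9037 in myoblasts (log2 -0.72 ± 0.22, adjusted p = 0.0624). Neither gene passed. The groups did not overlap in either, but both were picked by their p on these same arrays, so this adds no support. Of 20 PI3K, AKT and mTOR genes 1 fell, EIF4E, the cap-binding factor of translation, with 1522, 1970 and 2343 in myotubes, against 5208, 6716 and 6624 in myoblasts (log2 -1.58 ± 0.21, adjusted p = 0.002). Both of its tested probe sets fell, and it passed in the series-blocked fit too (-1.35, adjusted p = 0.0406). Of 6 AKT targets 1 rose, BAD, a promoter of cell death that AKT phosphorylates (log2 0.98 ± 0.23, adjusted p = 0.0227; 1 of 2 tested probe sets). Of 8 RAS and ERK genes 1 fell, MAP2K1, the kinase that activates ERK (log2 -1.17 ± 0.19, adjusted p = 0.00466).

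The mRNA-binding proteins IGF2BP2 and IGF2BP3, which bind the IGF2 transcript, both fell. IGF2BP2 gave 2339, 2793 and 3231 in myotubes, against 5207, 6012 and 6157 in myoblasts (log2 -1.01 ± 0.19, limma adjusted p = 0.00912). IGF2BP3 gave 2040, 1401 and 3141 in myotubes, against 3650, 5402 and 5869 in myoblasts (log2 -1.15 ± 0.29, adjusted p = 0.0289), and 2 of its 3 tested probe sets passed. The other 3 genes tested of that list, on mannose 6-phosphate routing, did not pass (log2 from -0.11 to 0.77). Among 5 other proteins with an IGFBP-type domain or of the serum complex, the matrix protein CCN1 (log2 -1.18 ± 0.19, adjusted p = 0.00487) and the membrane protein CRIM1 (-1.12 ± 0.25, adjusted p = 0.0202; 1 of 2 tested probe sets) fell. Over the 7 lists 8 of 68 genes rose and 8 fell, where over all genes 5.43% rose and 6.74% fell. The protease list held 7 of the 8 that rose and 2 of the 8 that fell. The median log2 change of the 68 was 0.25, against 0.12 over all genes tested. In the series-blocked fit 3 of the 68 passed, ADAM12, STC1 and EIF4E, where 2.54% of all probe sets passed. BAD, CCN1, CRIM1, IGF2BP2, IGF2BP3 and MAP2K1 did not pass in it (adjusted p from 0.0542 to 0.344). Leaving out 1 array ended the calls of BAD (myotube arrays 2 and 3, myoblast arrays 2 and 3, each alone; up to 0.11), of CRIM1 and IGF2BP3 (myotube arrays 1 and 2, myoblast arrays 2 and 3, each alone; up to 0.0823 and 0.115) and of IGF2BP2 (myoblast array 3, 0.0505).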

How the data were processed

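The authors deposited one intensity (signal) for each probe set, on a linear scale; per the submitters' processing notes the authors computed this intensity in MAS5, with no version named. Run records gave chip lot, scan day and a code in the description, read here as a laboratory code. Where the array number in a record differed from its title (3 myoblast arrays), the title was used. Of 22283 probe sets 68 controls and 51 sex-linked ones were left out. The platform annotation of 2016 gave 19065 probe sets 1 symbol, 1043 several and 2107 none; genes were named only from the first. Values were taken as log2(signal + 197), with 197 the 25th percentile of all signals; fold changes of dim probe sets are thereby understated. Probe sets under the 40th percentile of mean signal were not tested. The test was limma 3.58.1 (R 4.3.3, lmFit, eBayes with trend, two-sided, Benjamini-Hochberg over 13298 probe sets, threshold 0.05). It was also run on simulated data with independent noise on each array. That simulation held no day, lot or culture effects and so cannot check the p-values against these. A ± after a log2 change is its SE. Figures were drawn with matplotlib 3.10.9. Pathway genes were taken by the probe set of highest mean signal.

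The members, lists and alternatives were chosen with earlier results of these data known. Named were every member, up to 6 passing genes per pathway list by size of change, or the 2 with the smallest p, and the 3 genes most like the brightest ligand and binding protein. Of 95 pathway symbols 77 had a usable probe set and 68 were tested. The alternatives were the pseudocount, filter, scaling, variance model, replicate number as a block, laboratory series as a block or its first series alone, chip lot as a random block, 2 arrays averaged, averaging the probe sets of a gene, and leaving out each array. Precision is limited by 3 arrays per group and by signal over background: 10 of the 22 member probe sets were above it on all 6 arrays.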

Additional observations from a re-analysis of the deposited data

How the results depend on the processing

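With all arrays and no block 1516 probe sets passed, 4 of them members, and 16 pathway genes. Leaving out 1 array gave 493 to 3466 probe sets, 1 to 7 members (1 without myotube array 2, 2 without myoblast array 3, 7 without myoblast array 1) and 10 to 28 pathway genes. The laboratory series as a block gave 338, 2 and 3, its first series alone 174, 1 and 2, chip lot as a random block 401, 1 and 10, and myoblast arrays 2 and 3 averaged 576 and 2, with 11 pathway genes. The first series holds 1 myoblast array, whose spread is taken to equal that of the myotubes; the blocked fit borrows the spread of myoblast arrays 2 and 3, and p-values are too small if that spread is only technical. No lot held both groups, so the lot fit cannot separate lot from group. eBayes without trend gave 919 probe sets. With the replicate block 2312 probe sets and 5 members passed; deviations of same-numbered arrays from their group means correlated at 0.25, -0.18 and 0.38, so the numbers were not taken as pairs. Under pseudocounts, filters, both scalings and robust eBayes members numbered 4 to 6. None of the 4 members and 16 pathway genes that passed turned its sign in the settings run for them. Among members that did not pass, IGF2R 201393_s_at turned to 0.04 after quantile normalization, 0.49 with the series as a block and alone, 0.07 with 2 arrays averaged, 0.18 without myotube array 1 (leaving out 1 array, from -0.37 to 0.18), and 0.10 and 0.04 without myoblast arrays 2 and 3. With the series as a block or alone, IGF1R 208441_at was at -0.0038, IGFBP3 212143_s_at at -0.01 and IGFBP5 211958_at at -0.23, and the last was at -0.02 after quantile normalization. The cause was not tested for any of these.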

Other observations

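The 3 probe sets that carry the symbols INS-IGF2 and IGF2 together name neither gene and entered no count of members. The brightest, 202409_at, gave signals of 5772, 5002 and 5530 on myotube arrays, against 2801, 2248 and 2318 on myoblast arrays, with no overlap (log2 1.09 ± 0.18 SE, limma adjusted p = 0.00538). The series-blocked change was 0.91 (adjusted p = 0.076). The other 2, 202410_x_at and 210881_s_at, were too dim to test, and 1 of their 12 values, on myotube array 3, was above the background of its array.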
